A study of Mus musculus with 2 samples.

Results

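The span examined lies from 85 to 88 Mb on chromosome 1 of the mouse build mm9, a 3 Mb stretch chosen by the read depth of the tracks as a duplicated span with Sp100-like genes. Its members are all intervals with a read depth above 0 in either coverage track, 7160 in the 2C::tomato+ track and 4723 in the 2C::tomato- track. Together these are 11883 of the 24940257 covered intervals of both tracks. The span was chosen with the difference between the tracks known, and blocks were set apart by that same difference. Counts of higher windows and blocks are therefore descriptions, not tests.

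The tracks come from mRNA sequencing of mouse embryonic stem (ES) cells sorted by flow cytometry into cells with and without fluorescence of the 2C::tomato reporter. Promoter elements of MuERV-L, an endogenous retrovirus active in 2-cell embryos, drive this reporter. Both populations are of mixed strain background, are Kdm1a FL/FL with CreERT (Kdm1a encodes LSD1, a histone demethylase), and were grown on gelatin with 150 µg/ml hygromycin. There is 1 library per population, so no difference below has a replicate check and no p-value is given. Intervals are 95% counting intervals, and they are too narrow where reads are not independent molecules or are listed at several places.

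Proteins of the SP100 family, which in the mouse include Sp100, Sp110 and Sp140, are components of nuclear bodies that bind chromatin and are induced by interferon. On mouse chromosome 1 their genes lie beside an array of related copies, whose number differs between mice. In the GRCm38.p6 annotation of RefSeq, 24 genes lie between Slc16a14 and Cab39, with Sp110, Sp140 and Sp100 next to each other. Before them come unnamed or clone-named genes such as A530032D15Rik, Gm7609 and C130026I21Rik. That build differs from the one of the tracks. No alignment was given to a gene, exon or intron here, and the Sp100-like name of the span was not checked. Without gene assignments, ES cell markers were not analysed here.

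The tomato+ library held 37059813 alignments of 72 bases and the tomato- library 33833215. In the span there were 33412 and 29307. As a share of each library this is a tomato+ to tomato- ratio of 1.04 (1.02 to 1.06). Most of these alignments lie in 1 block at bases 85008656 to 85009377, with 26891 in the tomato+ and 24407 in the tomato- library, a ratio of 1.01. That block reached a depth of 4446 and 3940 reads, and its start pattern was found at 1 further place, on chromosome 8. Without the first 10 kb window, which holds it, 6514 and 4900 alignments remained, a ratio of 1.21 (1.17 to 1.26).

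Alignments outside that window fell into 3 parts with different levels. A first cluster, from 85010001 to 85350000, had 1079 alignments in the tomato+ and 235 in the tomato- library, a ratio of 4.19 (3.64 to 4.85). A second cluster, from 87340001 to 87620000, had 860 and 232, at a ratio of 3.38 (2.92 to 3.93). Between them lies a stretch of 2.00 Mb, bases 85341815 to 87344920, with no alignment in either track. Whether the build holds known sequence there was not checked, since no mm9 genome was used here. From 87620001 to the end of the span, 4575 and 4433 alignments gave a ratio of 0.942 (0.904 to 0.982). The higher level of the tomato+ library was thus seen in both clusters and not at the far end. Both clusters hold copies of the same blocks, described below, so their ratios are not separate measurements. The last window of the second cluster, from 87610001, had 17 alignments against 12, a ratio of 1.29 (0.582 to 2.97), below that of the cluster as a whole. The borders between these parts were drawn after the values were seen.

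Coverage of the clusters was thin but wide in the tomato+ library. It covered 42055 bases of both clusters, which are 620 kb long together, against 10259 bases in the tomato- library. Over the genome the tomato+ library covered 87.7 Mb and the tomato- library 72.6 Mb. The alignments in both clusters made up 0.00523% of the tomato+ and 0.00138% of the tomato- library, a ratio of 3.79 (3.42 to 4.203). Fewer cells with these transcripts and less RNA per cell cannot be told apart in sorted bulk samples.

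Of the 300 windows of 10 kb in the span, 215 had no alignment, 34 had 1 to 19 and 51 had at least 20 and were compared. A window counted as higher when its ratio reached the size set and its interval excluded 1. At least 4-fold higher in the tomato+ library were 17 windows (33.3% of those compared, against 1.69% of the windows of the genome). At least 2-fold higher were 22 (43.1%, against 4.62%). No window was at least 2-fold lower (0.827% of the genome's) or 4-fold lower (0.062%). The 4-fold higher windows all lay in the clusters, where they were 17 of 39 compared. Of the other cluster windows 5 were 2- to 4-fold higher, 15 were within 2-fold, and 2 were above 2-fold with an interval that includes 1. All 39 had a ratio above 1, the lowest at 1.14. Many cluster windows hold copies of the same blocks, described below, so these counts are not of independent windows. The windows from 85190001 and 85320001, for example, both had 77 and 40 alignments. All 11 windows compared at the far end were within 2-fold, between 0.805 and 1.39.

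Depth bears on these counts. Of the 17 windows, 11 had 20 to 49 alignments and 6 had more, up to 219. In the genome 4.04% of windows with 20 to 49 alignments were 4-fold higher, and 1.63% of those with 50 or more and fewer than 300. As a group, the genome's windows with 20 to 49 alignments were at 1.21, so thin windows ran higher in the tomato+ library over the genome as a whole. The part of depth in the cluster ratios was not tested. The least of the 4-fold higher windows, from 85060001, had 22 and 4 alignments, at a ratio of 5.02 (1.71 to 20.04). The window just outside the size set, from 85180001, had 35 and 9, at a ratio of 3.55 (1.67 to 8.40).

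**Figure D1:**
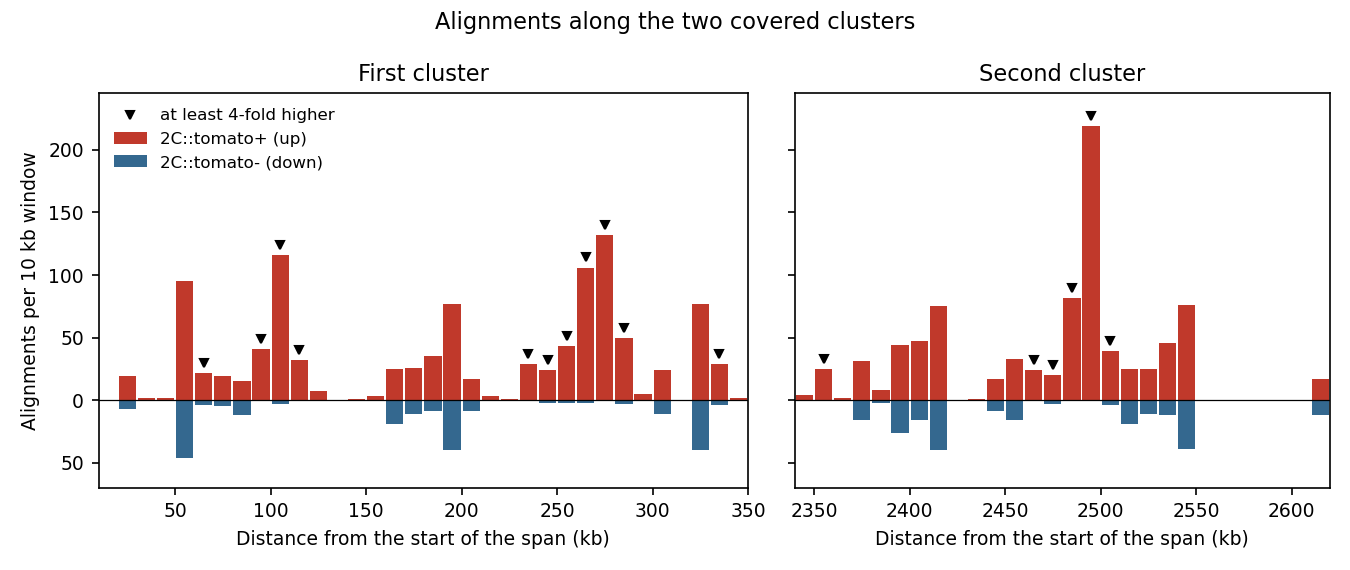
Alignments in each 10 kb window of the first and second cluster, against the distance from the start of the span in kb, with 2C::tomato+ drawn upward and 2C::tomato- downward. Triangles mark the 17 windows at least 4-fold higher in 2C::tomato+, the highest with 219 alignments against 0.

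The 4-fold higher windows formed 3 runs of neighbours and 3 single windows. The first run, from 85090001 to 85120000, had 189 alignments in the tomato+ and 5 in the tomato- library, a ratio of 34.5 (14.5 to 108). The run from 85230001 to 85290000 had 384 and 10, at a ratio of 35.1 (18.9 to 73.7). The third run, from 87460001 to 87510000, had 384 and 9, at a ratio of 38.95 (20.3 to 85.8). The runs hold copies of the same blocks, described below, so their ratios are not separate measurements. The single windows, from 85060001, 85330001 and 87350001, had 22 to 29 alignments in the tomato+ and 1 to 4 in the tomato- library.

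Within each run the signal rose to a peak over 1 or 2 windows. In the first run the window from 85100001 had 116 and 3 alignments, at a ratio of 35.3 (11.8 to 174), between neighbours with 41 and 1 and with 32 and 1. In the next run the windows from 85260001 and 85270001 had 106 and 2 and 132 and 0. Their neighbours from 85250001 and 85280001 had 43 and 2 and 50 and 3, and that from 85230001 had 29 and 1. In the third run the window from 87490001 stood highest of all, with 219 and 0, 66.6-fold higher with 3 counts in place of 0 (interval from 53.7). Beside it the window from 87480001 had 82 and 1, and that from 87500001 had 39 and 4. The peaks are the windows that hold the densest blocks described next.

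**Figure D2:**
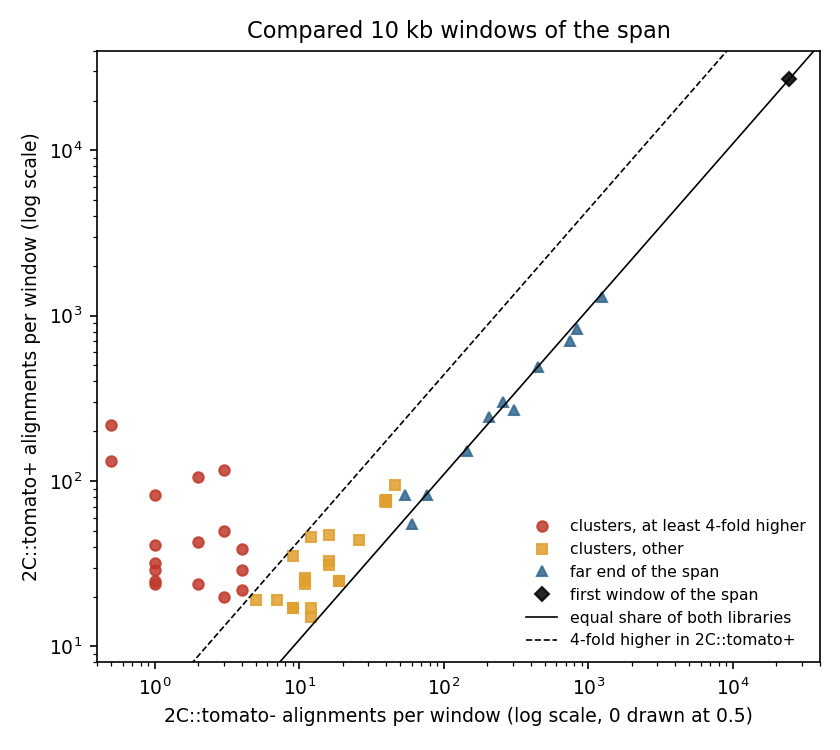
Each point is 1 of the 51 compared windows, with 2C::tomato- alignments across and 2C::tomato+ alignments up, both on log scales (0 drawn at 0.5); lines mark equal shares and a 4-fold higher share. The 17 higher windows have 0 to 4 alignments in 2C::tomato-, and the far end windows lie along the line of equal shares.

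A block is a run of bases covered in either track without a gap. The span held 586, of which 63 had at least 20 alignments and were compared. Mainly tomato+ were 14 (22.2%, against 0.98% of the genome's blocks, and 1.38% of those with 20 to 120 alignments), being at least 4-fold higher with an interval that excludes 1. Shared, with a ratio within 2-fold, were 40 (63.5%, against 93.1%), and 9 were neither. All 14 blocks of the first kind lay in the clusters, where 32 blocks were compared, and all lay in 4-fold higher windows.

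The tomato- library had no alignment in any of the 14 mainly tomato+ blocks. The tomato+ library had 495 there, between 21 and 58 per block, at 381 start positions, 151-fold higher with 3 counts in place of 0 (interval from 122). This sum counts copies of a block more than 1 time. The 495 are 47.9% of the tomato+ alignments in the 4-fold higher windows. The deepest base of a block was covered by 7 to 45 reads in the tomato+ track. The blocks were 154 to 598 bases wide. The least covered of them, at 87494808 to 87494973, had 21 and 0 alignments, 6.39-fold higher with 3 counts in place of 0 (interval from 4.75). The next compared block down, at 87539778 to 87539925, had 21 and 8, at a ratio of 2.40 (1.02 to 6.26), and no compared block lay between these.

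The 14 blocks are mostly copies of each other. A copy was called where at least 70% of a block's start positions, and at least 5, recurred at the same spacing with equal counts in both libraries, in either orientation. By this measure 13 of the 14 fell into 5 families within the span. Copies of a family share most of their start positions, so they are not independent measurements. With 1 copy of each counted, the 6 distinct blocks had 212 and 0 alignments, 64.5-fold higher with 3 counts in place of 0 (interval from 52.0).

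The densest family was a block of 343 bases with 3 copies. The copies at 85108330 to 85108672, 85268901 to 85269222 and 87495066 to 87495408 had 56, 57 and 58 alignments in the tomato+ library and 0 in the tomato- library. Each alone was 17.0- to 17.7-fold higher with 3 counts in place of 0 (intervals from 13.4, 13.7 and 13.9). These ratios rest on repeated stretches, which are runs of 64 bases whose start counts recur elsewhere in the genome. Only runs with at least 20 starts, at 8 or more bases, were checked. With repeated stretches left out, 6, 5 and 6 alignments remained against 0 and these ratios were 1.82, 1.52 and 1.82. Weighted by the number of places, they were 3.95, 2.74 and 3.04, all below 4-fold. Depth peaked at 44 or 45 reads at base 132 of each copy, counted from the start of the first copy's orientation. The pattern was found at 14 places in all, 6 of them on the unlocalised sequence of chromosome 1. Start positions of the copy at 85108330 recurred at 33 or 34 of 35 in the other copies of the span, at 29 of 35 at each place on unplaced sequence and at 26 of 35 on chromosome 5. Which copies were transcribed was not analysed here.

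The next family, of 531 bases, had 4 copies and was covered more evenly. The copies at 85096822 to 85097352, 85109783 to 85110314, 85257027 to 85257557 and 87506186 to 87506716 had 28, 28, 29 and 29 alignments against 0 in each case. Their depth did not pass 7 reads. The pattern was found at 13 places. The copies of the first run lie 12961 bases apart, so the first run holds 2 of them and the other runs 1 each.

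The remaining families had 2 copies each. Those of 411 bases, at 85272469 and 87491502, had 36 and 41 alignments against 0, with 23 of 31 start positions of the first equal in the second. Those of 157 bases, at 85271677 and 87492535, had 28 each against 0, 8.52-fold higher with 3 counts in place of 0 (interval from 6.48). Weighted by places these ratios were 2.13 and 3.04, and for the copy at 87492535 the ratio was 1.52 with repeated stretches left out. All alignments of the copy at 85271677 lay in repeated stretches, so none remained there with those left out. Those of 258 bases, at 85108765 and 87494808, had 26 and 21 against 0, with 17 of 22 start positions equal. One block of 598 bases, at 87487781 to 87488378, had 30 against 0 and no copy within the span, though its pattern was found at 3 places outside it. The blocks of 531, 411, 258 and 598 bases held no 64-base run dense enough to be checked as a repeated stretch. Leaving out or weighting such stretches therefore left their counts unchanged, although these blocks have copies too.

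The blocks that the later runs both hold had the same order, with 1 run turned round. From low to high coordinates the run from 85230001 held the blocks of 531, 343, 157 and 411 bases. The run from 87460001 held those of 598, 411, 157, 258, 343 and 531 bases, so the 4 blocks found in both came in reverse order. The block of 531 bases at 85257027 matched that at 87506186 in 27 of 27 start positions in inverted orientation. The gap between the blocks of 531 and 343 bases was 10977, 11343 and 10777 bases in the 3 runs. That between the blocks of 157 and 411 bases was 635 and 639. The blocks of 343 and 258 bases lay 92 bases apart in both runs that hold them.

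**Figure D3:**
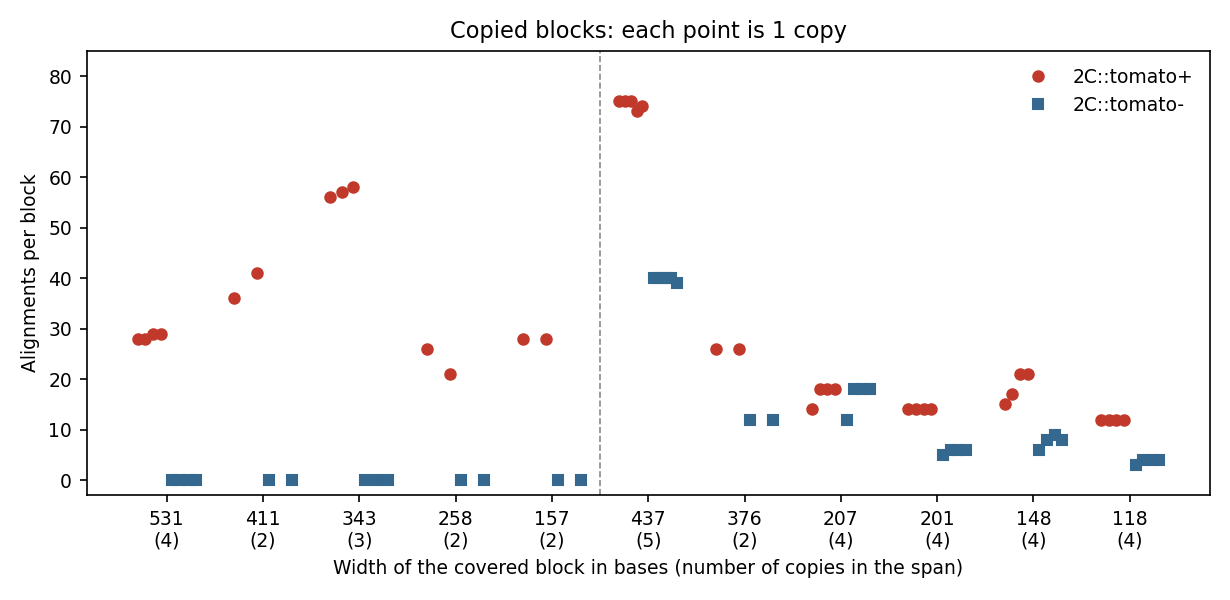
Alignments per block in families of copied blocks, each point 1 copy in the span, with the width of the block and the number of copies below; left of the dashed line are families of mainly tomato+ blocks. All mainly tomato+ copies have 0 alignments in 2C::tomato-, and the copies within a family differ by at most 6 alignments.

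Thin blocks were also counted by the windows they lie in, which were sorted on these same alignments, so the difference in ratio is a description. In the 4-fold higher windows, 217 blocks with fewer than 20 alignments had 538 in the tomato+ and 33 in the tomato- library, a ratio of 14.9 (10.5 to 21.8). All 33 tomato- alignments of these windows lie in such blocks. In the other cluster windows, 162 thin blocks had 298 and 96, at a ratio of 2.83 (2.24 to 3.61). Only 1 of the 217 and 5 of the 162 blocks were checked for copies, so these sums may count reads more than 1 time. Over the genome, blocks with fewer than 20 alignments were at 1.21 together. Of the 17 windows, 9 hold no start of a mainly tomato+ block. These rest on thin blocks alone, except the window from 85110001, into which the mainly tomato+ block at 85109783 to 85110314 runs.

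Shared blocks of the clusters were copies too. There were 12, with 509 and 297 alignments, a ratio of 1.56 (1.35 to 1.81), or 136 and 78, a ratio of 1.59 (1.196 to 2.13), with 1 copy of each counted. Single blocks ran from 0.913 to 1.98, and 9 of 12 were above 1. These 12 are 4 distinct blocks, so the 9 are not independent. The 27 shared blocks of the far end had 4406 and 4285 alignments, at a ratio of 0.939 (0.8999 to 0.979), and 10 of 27 were above 1. Shared blocks of the clusters thus had a higher ratio than those of the far end, while they stayed within 2-fold. The intervals do not test this difference, since classes and borders were set on these same values. The 5 copies of the 437-base block described next give 372 of the 509 and 199 of the 297 alignments. Coverage of the shared cluster blocks is thinner, with 14 to 75 tomato+ alignments each, and all were chosen for a ratio below 2.

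The largest shared family was a block of 437 bases with 5 copies. They start at 85059121, 85190739, 85328951, 87411083 and 87541161. The tomato+ library had 75, 75, 75, 73 and 74 alignments there, and the tomato- library 40, 40, 40, 40 and 39. One copy alone had a ratio of 1.71 (1.15 to 2.58). The copy at 85328951 is inverted, and the other copies have the same orientation as the first. The copies at 85059121 and 85190739 are 131618 bases apart and equal at 82 of 82 start positions. Those at 87411083 and 87541161 are 130078 bases apart and equal at 79 of 81. Both clusters thus carry this pattern at nearly the same spacing, with distances of 2220344 to 2482040 bases between clusters.

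**Figure D4:**
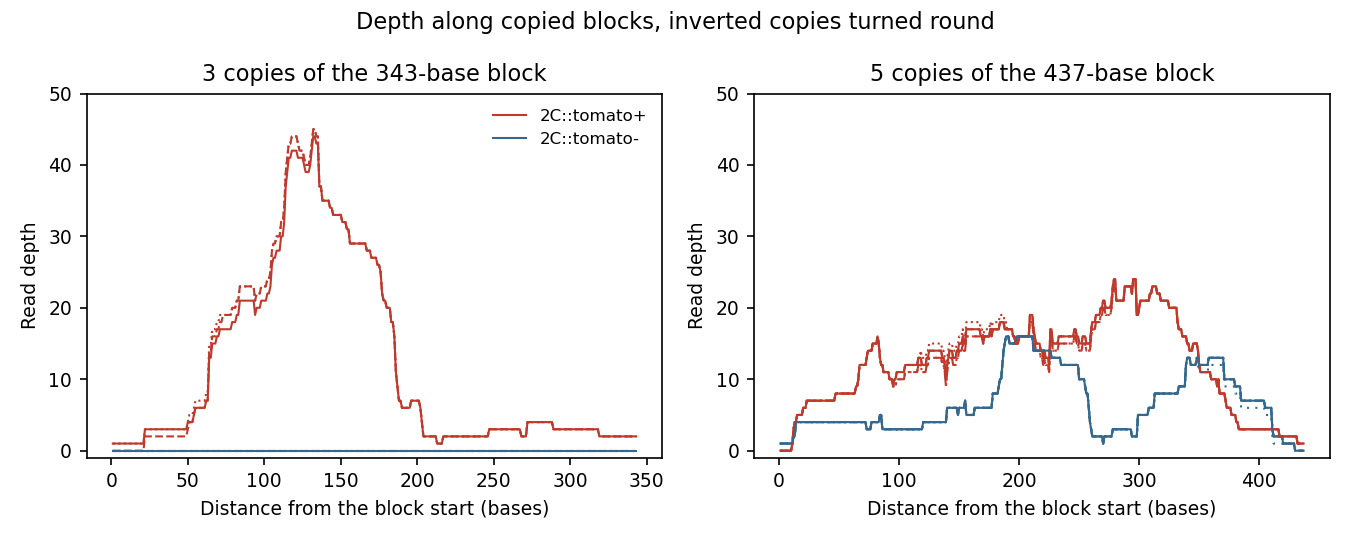
Read depth along the 3 copies of the 343-base block and the 5 copies of the 437-base block, against the distance from the block start in bases, with inverted copies turned round and line styles for copies. The 343-base block peaks at 44 to 45 reads in 2C::tomato+ and is at 0 in 2C::tomato-, while the 437-base block is covered in both, up to 24 and 16 reads.

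Further families of copied blocks had fewer alignments per block than the 437-base family. A block of 207 bases with 4 copies had 14 to 18 alignments in the tomato+ and 12 to 18 in the tomato- library. The fullest copy was at 0.913 (0.448 to 1.86), so this family did not differ beyond counting error. A block of 376 bases with 2 copies had 26 and 12 at each, a ratio of 1.98 (0.963 to 4.30). Families of 148, 201 and 118 bases, with 4 copies each, had 15 to 21, 14 and 12 alignments in the tomato+ and 6 to 9, 5 to 6 and 3 to 4 in the tomato- library. Their fullest copies had ratios of 2.13 (0.935 to 5.28), 2.13 (0.769 to 6.76) and 2.74 (0.830 to 11.7), and all 3 intervals include 1. Of the other copies of these families, that of the 148-base block at 87539778 had an interval that excludes 1, as given above.

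The kinds of block also differed in where their other copies lie. All 38 cluster blocks with at least 15 alignments had a copy elsewhere, and all 38 had one on the unlocalised sequence of chromosome 1. At the far end 3 of 30 such blocks had a copy. None of the 14 mainly tomato+ blocks had a copy on chromosome 9, while 10 of the 12 shared cluster blocks did. All chromosome 9 copies lie between bases 42772875 and 42774503. On chromosome 5 a copy was found for 5 mainly tomato+ blocks and 0 shared cluster blocks. The 14 and 12 blocks are 6 and 4 distinct ones, and copies of a family share most places, so these counts are not of independent blocks. The mainly tomato+ blocks were found at 3 to 14 places (median 11.5) and the shared cluster blocks at 4 to 11 (median 9). As a whole the unlocalised sequence of chromosome 1 had 24028 and 21465 alignments, at a ratio of 1.02.

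At the far end of the span 27 of 30 compared blocks were within 2-fold, and most were found at 1 place. The exceptions were the block at 87733855, with 10 alignments against 27 and a ratio of 0.338 (0.146 to 0.721), that at 87802991, with 24 against 10 and 2.19 (1.01 to 5.13), and that at 87968183, with 12 against 22 and a ratio of 0.498. The longest, at 87745602 to 87748145, had 1210 and 1162 alignments, at a ratio of 0.951. The other most covered shared blocks start at 87986562 (372 and 371), 87975136 (255 and 276), 87960962 (271 and 248), 87972367 (248 and 241), 87983145 (215 and 251) and 87910681 (209 and 240). Their ratios ran from 0.782 to 0.998. The windows from 87740001, 87960001, 87970001 and 87980001 had ratios of 0.943, 0.994, 0.865 and 0.914. The far end has far more alignments per block than the clusters and sets the level of the whole span together with the first window.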

How the data were processed

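Coverage signal was deposited as 1 track per library, giving read depth along mm9, per the file headers and values. Bowtie is named in the submitters' processing notes, without a version. Both tracks resolved exactly into starts of ungapped alignments of 72 bases. Recurring patterns of starts were read as reads listed at several places, an inference, since no source used here gives the aligner's settings. From these starts, alignments were counted (Python 3.11.15, NumPy 2.4.6, SciPy 1.17.1) in 10 kb windows and covered blocks. Ratios are of shares of all alignments, with exact conditional binomial (Clopper-Pearson) 95% intervals, which cover counting error only. Comparison required at least 20 alignments summed over the libraries. For a finite ratio a count of 0 was replaced by 3, which gives a higher value than the lower end of the interval. The decoding was tested on simulated data.

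The members, windows and lists were chosen with earlier results of these data known. The rule named the 12 windows at least 4-fold higher with most alignments, the 5 within 2-fold with most, the 12 mainly tomato+ and the 8 shared blocks with most. Other windows and blocks, the cluster borders and the search for copies (blocks with at least 15 alignments) were chosen after their values were seen. Alternatives varied the quantity counted, scaling, minimum, window and joining of blocks. No mm9 genome or annotation was used here, so no sequence or gene is given.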

Additional observations from a re-analysis of the deposited data

How the results depend on the processing

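No named window or block at least 2-fold higher turned lower under the alternatives run. Ratios near 1 did cross it: counting each start position 1 time moved the first window of the span from 1.01 to 0.876, block 85008656 from 1.01 to 0.868 and block 87910681 from 0.795 to 1.03, and shared blocks together moved from 1.002 to 0.981, or to 0.996 with repeated stretches left out. Counting each start position 1 time gave 1.28 for the span, 110 for the mainly tomato+ blocks together (3 counts in place of 0) and 2 blocks of neither kind. Leaving out repeated stretches gave 87.98, and weighting by places 96.7, for the mainly tomato+ blocks. Both settings saw only stretches with at least 20 starts, though all 14 blocks were found at 3 to 14 places. These 2 values therefore do not show how far the blocks depend on copies. Windows of 50 kb gave 8 at least 2-fold and 4 at least 4-fold higher. A minimum of 50 alignments gave 8 and 6 windows, 3 mainly tomato+ blocks and 0 of neither kind. No minimum gave 44 mainly tomato+, 71 shared and 471 other blocks. Windows shifted by 5 kb gave 1 window 2-fold lower. Of alternatives chosen after seeing the data, leaving out the first window gave 1.21 for the span, 1 copy of each block 64.5 for the mainly tomato+ blocks, and the clusters alone 1.56 for shared blocks. The causes were not tested. For the 17 named windows and 20 named blocks, 124 of 147 recomputed values moved by less than their counting interval and 23 by more. Among the 23 were ratios of the 343- and 157-base blocks, which fell below 4-fold with repeated stretches left out, where any alignments remained, or weighted. Median-ratio scaling differed from the totals by a factor of 1.006, so its 37 values could hardly move. Windows and blocks without a repeated stretch could hardly move with such stretches left out or weighted. No paired analysis was possible because 1 library per population was analysed, and for the same reason no replicate could be left out. Thin coverage, with 0 to 4 tomato- alignments in each 4-fold higher window, limits the size of these ratios.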

Other observations

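A covered block at the far end of the span, at 87910681 to 87912332, was 1652 bases wide and had 209 and 240 alignments in the tomato+ and tomato- library. Its start positions had equal counts in both libraries at a spacing of 84 bases in 94 of 275 cases, at 168 bases in 66 and at 252 bases in 37. Spacings of 31 and 53 bases had 39 cases each, and those of 137, 115 and 40 bases had 32, 30 and 26. It was singled out after its values were seen.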
